A study of Mus musculus with 6 samples.

Results

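The 7 sirtuins (Sirt1 to Sirt7), Nampt, Cd38 and Parp1 were described in the cochlea of young and old mice. These 10 genes were picked by symbol, by a rule that used no measured value, though earlier results of these data were known. They were drawn from 25419 genes of the expression table. All 10 genes were measured and passed the filter on low values, as did 19465 genes in all. The study profiled RNA from the basilar membrane, the strip of cochlear tissue that carries the sensory epithelium, dissected from C57BL/6 mice, a strain that loses hearing early in life. The young group was 1 month old and the old group was 12 months old, with 3 samples in each group. Both groups were housed alike, and no treatment was named for either. Each sample was a pool of cochlear tissue from 3 mice, so that differences between single animals could not be seen. The labels gave no sex, and the dissection held nerve, immune and supporting cells beside hair cells.

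Sirtuins are enzymes that use NAD to remove acetyl and other acyl groups from proteins, or to transfer ADP-ribose. Sirt1, Sirt6 and Sirt7 work mainly in the nucleus, Sirt2 mainly in the cytosol, and Sirt3, Sirt4 and Sirt5 in mitochondria. Nampt makes the precursor of NAD from nicotinamide and sets the rate of this salvage route, while Cd38 and Parp1 consume NAD. In the cochlea, Sirt3 is known for its part in the protection of hearing by caloric restriction.

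All 7 sirtuins hold a glycine-rich stretch of the NAD-binding site, whose coding sequence is shown here because it is common to the family. The 42 bases below were read 5′ to 3′ from the most abundant transcript of each gene. Each stretch was located by the same amino acid pattern. Capitals mark the 12 bases that were identical in all 7 genes. Most of these matches follow from the residues that the pattern fixed, so they do not measure how alike the genes are.
Sirt1: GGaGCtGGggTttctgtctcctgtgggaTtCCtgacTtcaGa
Sirt2: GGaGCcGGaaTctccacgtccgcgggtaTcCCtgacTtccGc
Sirt3: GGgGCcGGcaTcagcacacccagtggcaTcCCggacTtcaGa
Sirt4: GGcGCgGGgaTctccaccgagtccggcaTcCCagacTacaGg
Sirt5: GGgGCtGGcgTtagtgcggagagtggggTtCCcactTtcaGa
Sirt6: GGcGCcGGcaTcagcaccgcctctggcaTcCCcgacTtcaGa
Sirt7: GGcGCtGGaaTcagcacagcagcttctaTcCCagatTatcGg
On GRCm38 the stretch lay in coding exon sequence at chr10:63331865-63335644 in Sirt1, chr7:28776881-28777018 in Sirt2, chr7:140877882-140877997 in Sirt3, chr5:115482896-115482937 in Sirt4, chr13:43371888-43371929 in Sirt5, chr10:81625898-81626530 in Sirt6 and chr11:120622188-120624507 in Sirt7. Sirt2 and Sirt5 are read from the plus strand and the other sirtuins from the minus strand. In Sirt4 and Sirt5 the stretch lay within exon 2, and in the other sirtuins it crossed an intron. Over the 21 pairs of sirtuins, Sirt3 and Sirt6 were the most alike with 36 of 42 bases identical. The stretch was held by 21 of 23 sirtuin transcripts, and the exceptions were Sirt7-207 and Sirt7-202.

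Expression was given as FPKM, the number of sequenced fragments scaled to transcript length and to library size, which allows levels of different genes to be compared. Values of a gene are sums over its transcripts, and the values of a group are given in the order of samples 1, 2 and 3. The depth, estimated from the step size of low values, was 12560000 to 15660000 fragments per sample. At that depth the 10 genes were covered by about 44.9 to 3365 fragments per sample, the fewest for Sirt6 in young sample 3 and the most for Nampt in old sample 2. All changes below are on the scale of log2(FPKM + 0.1), old minus young, with the standard error (SE) from limma, and a gene was called where its p, adjusted over all genes tested, was under 0.05. Of all genes tested 9.45% were called, 5.65% higher and 3.81% lower in old cochlea.

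None of the 10 genes was called. By limma, 3 of 10 had an unadjusted p under 0.05 (Sirt2, Nampt and Cd38), against 27.8% of all genes tested. The 3 old and 3 young samples did not overlap for 2 of 10 genes (Sirt2 and Nampt), against 33.7% of all genes tested, so neither count stood clearly above the background. The log2 change was above 0 for 4 genes and below 0 for 6, with a median of -0.03 over the 10 genes and 0.01 over all genes tested. Its size, without regard to sign, had a median of 0.11 over the 10 genes and of 0.27 over all genes tested. The 95% interval of the change lay within 1.5-fold in either direction for 8 of 10 genes and within 2-fold for all 10, and the exceptions at 1.5-fold were Sirt6 and Cd38. The exact permutation test of 3 against 3 samples cannot give a two-sided p below 0.1, the value that it gave for Sirt2 and Nampt.

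**Figure D1:**
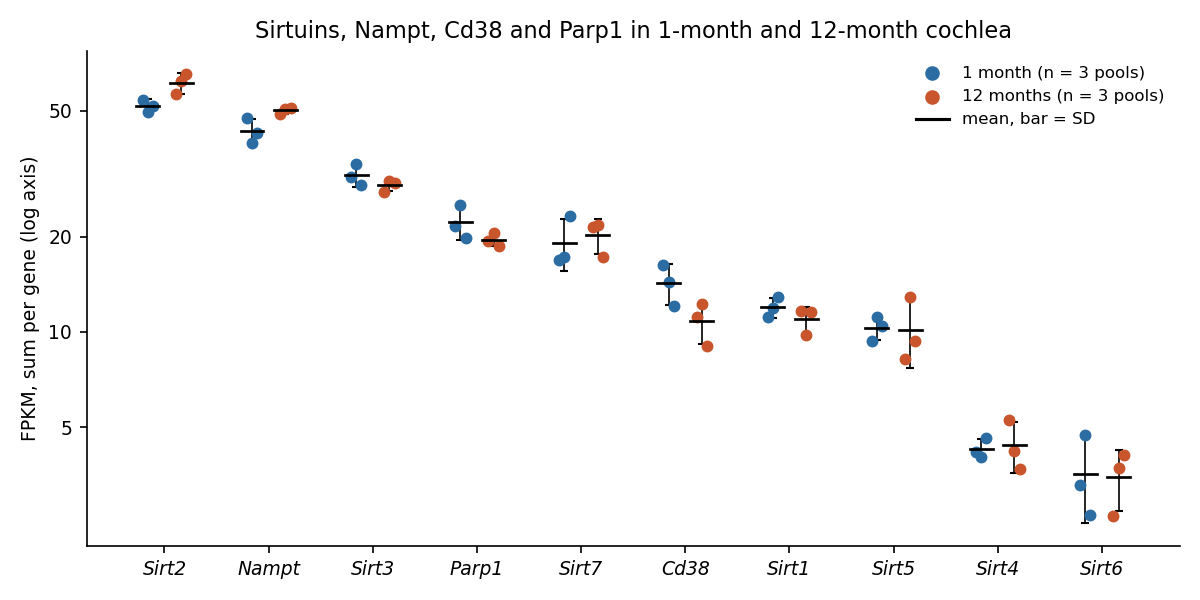
FPKM summed per gene (log axis) of the 10 genes in each of 3 young (1 month, blue) and 3 old (12 months, orange) pools, ordered by mean level, with the group mean and SD in black. Sirt2 and Nampt lay at the top, between 39.6 and 65.1 FPKM, and were the only genes of the 10 whose old and young samples did not overlap.

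Sirt2 was the most abundant of the 10 genes, with a mean of 56.4 FPKM over the 6 samples, followed by Nampt with 46.6, Sirt3 with 30.2, Parp1 with 20.9, Sirt7 with 19.7, Cd38 with 12.5, Sirt1 with 11.5, Sirt5 with 10.2, Sirt4 with 4.34 and Sirt6 with 3.52 FPKM. The order was set from these same samples, so neighbours in it are described by the number of samples that showed their order, with no test. Sirt2 was above Nampt, Nampt above Sirt3, Sirt3 above Parp1, Sirt7 above Cd38 and Sirt5 above Sirt4 in 6 of 6 samples. Sirt1 was above Sirt5 in 5 of 6 samples, Sirt4 above Sirt6 in 4 of 6, and Parp1 above Sirt7 and Cd38 above Sirt1 in 3 of 6 each. For these last pairs the mean log2 ratio was smaller than its SD over the 6 samples, so their order did not stand out from the spread.

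Summed over the 7 genes, sirtuin expression was 130, 132 and 135 FPKM in the young samples and 133, 144 and 141 FPKM in the old samples. The groups overlapped. Sirt2 alone made up 39.2% ± 2.32 (SD, n = 3) of this sum in young and 43.8% ± 2.16 (SD, n = 3) in old cochlea. The 3 mitochondrial sirtuins together made up 34.7% ± 2.27 in young and 31.3% ± 1.19 in old cochlea, and the 3 nuclear sirtuins 26.2% ± 2.40 and 24.9% ± 1.73 (SD, n = 3 in each group).

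Sirt1 (chr10:63319005-63381704) deacetylates histones and transcription factors. It was at 11.1, 11.9 and 12.9 FPKM in young and 11.6, 9.80 and 11.5 FPKM in old cochlea. The groups overlapped, and old sample 2 was the lowest of the 6. Its log2 change was -0.12 (SE 0.11, 95% interval -0.38 to 0.13, adjusted p = 0.507 by limma).

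Sirt6 (chr10:81621785-81627797), a chromatin deacetylase with roles in DNA repair and glucose metabolism, was at 3.30, 4.74 and 2.65 FPKM in young and 2.63, 3.72 and 4.10 FPKM in old cochlea. Both groups reached down to the same level, and they overlapped almost wholly. Its log2 change was -0.02 (SE 0.26, 95% interval -0.62 to 0.59, adjusted p = 0.978 by limma), the widest interval of the 10 genes. With 44.9 to 79.1 fragments per sample, counting error alone amounted to 14.9% of the level in the shallowest sample.

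Sirt7 (chr11:120618372-120625240), a nucleolar sirtuin tied to transcription of ribosomal RNA, was at 16.9, 17.2 and 23.3 FPKM in young and 21.4, 21.8 and 17.3 FPKM in old cochlea. Young sample 3 was the highest and old sample 3 lay with the other young samples, so the groups overlapped. By log2 the change was 0.08 (SE 0.15, 95% interval -0.27 to 0.44, adjusted p = 0.755 by limma).

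Sirt2 (chr7:28766735-28788661) deacetylates tubulin and is abundant in myelinating glia. It was at 54.2, 49.3 and 51.8 FPKM in young and 56.2, 62.0 and 65.1 FPKM in old cochlea. Every old sample was above every young sample, with 51.8 ± 2.43 against 61.1 ± 4.50 FPKM (SD, n = 3 in each group). This gave a log2 change of 0.24 (SE 0.08, 95% interval 0.05 to 0.42), a ratio of 1.18, with an unadjusted p of 0.0174 and an adjusted p of 0.0991 by limma, so the difference did not pass the threshold.

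Sirt3 (chr7:140863666-140882309), the main deacetylase of mitochondria, was at 30.8, 34.0 and 29.0 FPKM in young and 27.7, 30.0 and 29.6 FPKM in old cochlea. Young sample 2 was the highest, and the groups overlapped. Between ages, the log2 change was -0.10 (SE 0.08, 95% interval -0.30 to 0.09, adjusted p = 0.473 by limma). Exons of Sirt3 shared 342 bases with Psmd13 and 418 bases with Ric8a on the opposite strand. A kit that marks strand was used for the libraries, and whether strand was used in counting was not given in the sources used here.

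Sirt4 (chr5:115478010-115484725), which removes lipoyl and other acyl groups in mitochondria, was at 4.17, 4.02 and 4.63 FPKM in young and 5.29, 4.22 and 3.69 FPKM in old cochlea. The old samples spanned the young ones on both sides. On the log2 scale the change was 0.03 (SE 0.17, 95% interval -0.37 to 0.42, adjusted p = 0.934 by limma).

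Sirt5 (chr13:43365496-43395203), the desuccinylase of mitochondria, showed the same kind of spread. It was at 9.36, 11.2 and 10.4 FPKM in young and 8.22, 12.9 and 9.35 FPKM in old cochlea. Both the highest and the lowest value were old. The change in log2 was -0.04 (SE 0.17, 95% interval -0.45 to 0.36, adjusted p = 0.894 by limma).

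Nampt (chr12:32819545-32853349) was at 47.3, 39.6 and 42.6 FPKM in young and 48.7, 50.6 and 50.9 FPKM in old cochlea. Every old sample was above every young sample, by 1.43 FPKM between the nearest pair, and the old samples spread less, with 43.2 ± 3.88 against 50.1 ± 1.19 FPKM (SD, n = 3 in each group). Its log2 change was 0.22 (SE 0.08, 95% interval 0.03 to 0.41), a ratio of 1.16, with an unadjusted p of 0.0291 and an adjusted p of 0.132 by limma, which did not pass the threshold.

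Cd38 (chr5:43868553-43912375), an enzyme at the cell surface that cleaves NAD and is known from immune cells, had the largest difference in size among the 10 genes. It was at 16.3, 14.4 and 12.1 FPKM in young and 11.1, 12.3 and 9.01 FPKM in old cochlea. Old sample 2 lay just above young sample 3, so the groups overlapped. The means were 14.2 ± 2.09 and 10.8 ± 1.66 FPKM (SD, n = 3 in each group), and the log2 change was -0.40 (SE 0.15, 95% interval -0.76 to -0.04), a ratio of 0.760, with an unadjusted p of 0.0352 and an adjusted p of 0.148 by limma.

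Parp1 (chr1:180568924-180601254), which senses DNA breaks and builds chains of ADP-ribose from NAD, was at 21.6, 25.1 and 19.8 FPKM in young and 19.4, 20.5 and 18.7 FPKM in old cochlea. The 2 highest values were young, and old sample 2 lay above young sample 3. By log2 the change was -0.18 (SE 0.10, 95% interval -0.42 to 0.07, adjusted p = 0.315 by limma).

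**Figure D2:**
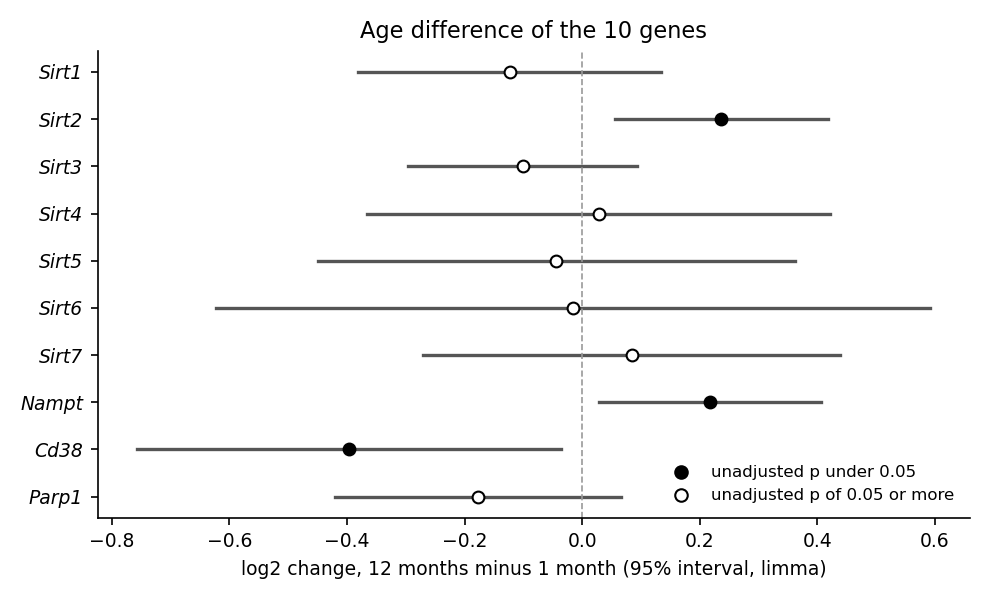
Log2 change of each gene (12 months minus 1 month) with its 95% interval from limma, where filled points had an unadjusted p under 0.05. Intervals of Sirt2, Nampt and Cd38 left out 0, that of Sirt6 was the widest, and no adjusted p was under 0.05.

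Transcripts of the same gene were then compared, since the sum can hide a shift between them. The 10 genes had 28 transcripts in the table, of which 23 passed the filter, and none of the 23 was called, against 0.748% of 38764 transcripts tested. By limma 4 of 23 had an unadjusted p under 0.05 (17.0% of all transcripts tested), namely Sirt7-207, Sirt2-202, Nampt-201 and Cd38-201. The old and young samples did not overlap for 6 of 23, against 24.6% of all transcripts tested. Fragments that fall on exons shared by several transcripts were divided among them by the model of Cufflinks and Cuffdiff, so these values are less certain than the sums.

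Sirt1 was carried by Sirt1-201, which encodes 737 residues, and Sirt1-202, which encodes 698. The pair shared 3737 bases. Sirt1-202 lacks exon 2 of Sirt1-201 (chr10:63336980-63337096, minus strand), an exon of 117 coding bases, or 39 whole codons, which is shown because it is the coding difference between both transcripts.
Sirt1-201 exon 2: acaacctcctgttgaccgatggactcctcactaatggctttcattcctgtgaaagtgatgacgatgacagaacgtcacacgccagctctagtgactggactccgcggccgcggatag
Sirt1-201 was at 7.52, 9.17 and 10.2 FPKM in young and 8.09, 4.85 and 9.37 FPKM in old cochlea, and Sirt1-202 at 3.59, 2.74 and 2.65 FPKM in young and 2.93, 4.83 and 1.89 FPKM in old cochlea. Old sample 2 stood apart, with 49.3% of Sirt1 in Sirt1-202 against 16.4% to 32.3% in the 5 other samples. Neither transcript differed between ages, with log2 changes of -0.31 (SE 0.26, adjusted p = 0.607 by limma) for Sirt1-201 and 0.02 (SE 0.35, adjusted p = 0.990) for Sirt1-202.

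For Sirt2, the leading transcript was Sirt2-202, which encodes 352 residues and lacks exon 2 of Sirt2-201 (chr7:28767632-28767678, plus strand). The longer form, Sirt2-201, has 389 residues from 1167 coding bases, against 1056 coding bases in Sirt2-202. The exon, which is shown as sequence absent from Sirt2-202, has 47 coding bases and so is not the whole coding difference.
Sirt2-201 exon 2: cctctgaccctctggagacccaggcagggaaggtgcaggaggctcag
Sirt2-202 was at 37.8, 38.5 and 40.9 FPKM in young and 45.9, 44.2 and 47.9 FPKM in old cochlea, so that every old sample was above every young sample. Its log2 change was 0.24 (SE 0.07, 95% interval 0.08 to 0.40, unadjusted p = 0.0102, adjusted p = 0.145 by limma). Sirt2-201 was at 13.7, 8.82 and 8.99 FPKM in young and 8.95, 15.8 and 14.7 FPKM in old cochlea, and these groups overlapped. Sirt2-202 made up 75.5% ± 5.08 of Sirt2 in young and 75.5% ± 5.42 in old cochlea (SD, n = 3 in each group), which differed by far less than the spread.

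Sirt3-202 carried most of Sirt3. It was at 22.2, 22.2 and 20.6 FPKM in young and 16.5, 20.3 and 19.7 FPKM in old cochlea, each old sample below each young one, with a log2 change of -0.21 (SE 0.10, 95% interval -0.45 to 0.04, adjusted p = 0.363 by limma). Sirt3-201 differs from it in the first exon, encodes the same 257 residues, and was highest in young sample 2 with 7.41 FPKM. Sirt3-205 was at 5.36 ± 1.02 FPKM in young and at 6.50 ± 0.545 FPKM in old cochlea (SD, n = 3 in each group), in the direction opposite to Sirt3-202 and with overlapping groups (log2 change 0.29, adjusted p = 0.446 by limma). Sirt3-210, which encodes 309 residues, did not exceed 3.71e-06 FPKM in any sample.

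Sirt7-207 had the largest change among the transcripts of the sirtuins with an unadjusted p under 0.05. It was at 0.959, 0.801 and 2.08 FPKM in young and 3.07, 3.26 and 3.61 FPKM in old cochlea, without overlap. This gave a log2 change of 1.42 (SE 0.37, 95% interval 0.52 to 2.31, unadjusted p = 0.00743, adjusted p = 0.125 by limma). Sirt7-207 encodes 195 residues and lacks the NAD-binding stretch printed above, and 142 of its 1218 bases are not in Sirt7-201. It made up 6.41% ± 2.22 of Sirt7 in young and 16.7% ± 3.61 in old cochlea (SD, n = 3 in each group), from about 10.4 to 47.9 fragments per sample. Sirt7-201, the form of 402 residues that holds the stretch, was at 14.3, 16.3 and 16.6 FPKM in young and 15.8, 16.2 and 13.7 FPKM in old cochlea, with overlap and a log2 change of -0.05 (SE 0.11, adjusted p = 0.862 by limma). Sirt7-202, a transcript of 427 bases that also enters the sum, ranged from 0.00870 FPKM in old sample 3 to 4.68 FPKM in young sample 3. Exons of Sirt7 also shared 124 bases with Mafg on the same strand, where counting could have split reads.

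**Figure D3:**
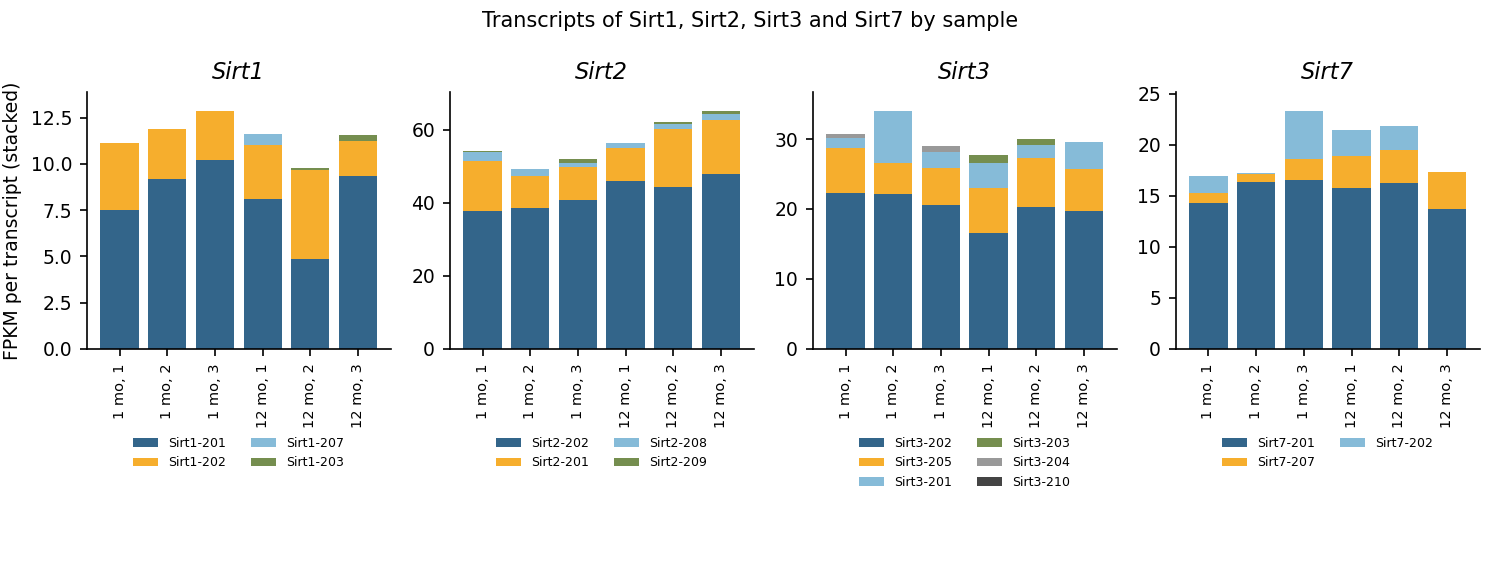
FPKM of each transcript of Sirt1, Sirt2, Sirt3 and Sirt7, stacked per sample (3 samples at 1 month and 3 at 12 months). Sirt1-202 reached 49.3% of Sirt1 in old sample 2, Sirt2-202 held a like share in both groups, and Sirt7-207 was taller in the 3 old samples.

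Other genes of NAD metabolism, and regulators and substrates of sirtuins, were read beside the 10 genes. Of 74 genes listed in 5 groups 69 were tested, and 15 were called, 10 higher and 5 lower in old cochlea. Over all genes tested 9.45% were called, 5.65% higher and 3.81% lower. When single samples were left out, 0 of the 69 were called without young sample 2 or without any of the 3 old samples, 3 without young sample 1 and 10 without young sample 3, while the number of calls over all genes fell as well.

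Among 16 tested genes of NAD synthesis other than Nampt, 2 rose and 1 fell. The median log2 change was 0.35, against 0.01 over all genes tested, with 10 changes above 0 and 6 below. The summed level of the list was lower in each old sample than in each young one. It was 160.99 to 171.5 FPKM in the young and 140.9 to 160.69 FPKM in the old samples. Slc25a51, Pnp and Nmnat2 were the most abundant of the list and weighed most in this sum. Each of them had a lower mean in old cochlea. Naprt, which makes the NAD precursor from nicotinic acid, was at 8.27, 8.47 and 9.01 FPKM in young and 14.1, 15.1 and 16.1 FPKM in old cochlea. All old values were far above the young ones, with a log2 change of 0.81 (SE 0.10, adjusted p = 0.0111 by limma). Nmnat3, the mitochondrial form of the enzyme that completes NAD, was at 2.80, 2.45 and 2.81 FPKM in young and 4.73, 4.84 and 5.03 FPKM in old cochlea (log2 change 0.84, SE 0.14, adjusted p = 0.0205). Nmnat2, the form that maintains axons, fell from 32.2, 37.0 and 28.2 FPKM to 22.5, 25.0 and 23.3 FPKM (log2 change -0.45, SE 0.11, adjusted p = 0.0460). The summed level of 10 neuron markers was 628 to 1237 FPKM in the young and 429 to 468 FPKM in the old samples. In bulk tissue, fewer cells of a type and less RNA per cell cannot be told apart, and the part of the neuron markers in the change of Nmnat2 was not tested. Of the genes not called, Slc25a51, the mitochondrial NAD carrier, had a log2 change of -0.41 (adjusted p = 0.0786 by limma) and Pnp, a purine nucleoside phosphorylase, of -0.10 (adjusted p = 0.491).

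In the group of NADP synthesis and nicotinamide clearance, 2 of 7 genes rose. Nnmt, which methylates nicotinamide, was at 0.741, 0.861 and 0.475 FPKM in young and 1.53, 1.57 and 1.95 FPKM in old cochlea (log2 change 1.20, SE 0.29, adjusted p = 0.0446 by limma). Aox1, an oxidase that acts on methylated nicotinamide, was at 7.76, 7.81 and 8.15 FPKM in young and 12.3, 12.0 and 11.6 FPKM in old cochlea (log2 change 0.59, SE 0.09, adjusted p = 0.0176). Nadk, which turns NAD into NADP, and Nnt, which passes electrons between both, were not called, with log2 changes of 0.13 (adjusted p = 0.301) and 0.37 (adjusted p = 0.193).

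Of 14 tested members of the PARP family other than Parp1, 5 rose and 1 fell, with a median log2 change of 0.30. Parp10 was at 4.48, 2.97 and 3.61 FPKM in young and 7.43, 12.8 and 9.01 FPKM in old cochlea (log2 change 1.36, SE 0.23, adjusted p = 0.0215 by limma). Parp14 was at 4.33, 3.72 and 3.88 FPKM in young and 6.11, 11.4 and 9.22 FPKM in old cochlea (log2 change 1.10, SE 0.22, adjusted p = 0.0299). For both genes all old samples were above the young ones, and old sample 2 was the highest.
Parp12 and Parp9 had log2 changes of 0.80 (adjusted p = 0.0310) and 0.68 (adjusted p = 0.0387), likewise with the highest value in old sample 2. Parp9, Parp10, Parp12 and Parp14 are known as genes induced by interferon. The summed level of 19 interferon response genes, a list that holds none of these PARP genes, was 149 to 265 FPKM in the young samples and 499, 1308 and 688 FPKM in old samples 1, 2 and 3, and its part in the change of these genes was not tested.
Parp3, which acts at DNA breaks like Parp1, was at 9.32, 8.84 and 10.02 FPKM in young and 17.7, 21.9 and 16.5 FPKM in old cochlea (log2 change 0.98, SE 0.13, adjusted p = 0.0122). Parp6 was the member that fell (log2 change -0.60, SE 0.15, adjusted p = 0.0477). The abundant Tnks2 and Tiparp were not called, with log2 changes of -0.20 (adjusted p = 0.119) and 0.31 (adjusted p = 0.0765).

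Of 8 tested glycohydrolases, enzymes of ADP-ribose removal and genes listed with them (among these Art3 and Dtx3l), beside Cd38, 1 rose. This was Oard1, which removes ADP-ribose from proteins, at 23.3, 24.8 and 26.1 FPKM in young and 30.1, 30.2 and 30.4 FPKM in old cochlea (log2 change 0.29, SE 0.07, adjusted p = 0.0493 by limma). Art3 and Parg, the most abundant of the others, had log2 changes of -0.12 (adjusted p = 0.657) and -0.23 (adjusted p = 0.126). Bst1, the closest relative of Cd38, was at most 0.717 FPKM in any sample and was not called (adjusted p = 0.813).

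Of 24 tested regulators and substrates of sirtuins none rose and 3 fell, with a median log2 change of 0.02. Prkaa1 and Prkaa2, the catalytic subunits of AMP-activated kinase, had log2 changes of -0.41 (SE 0.08, adjusted p = 0.0278 by limma) and -0.47 (SE 0.09, adjusted p = 0.0280). Sod2, the superoxide dismutase of mitochondria and a substrate of Sirt3, fell from 57.6, 64.8 and 54.6 FPKM to 46.3, 45.1 and 47.6 FPKM (log2 change -0.34, SE 0.08, adjusted p = 0.0412). The abundant Txnip and Tuba1a, a tubulin, were not called, with log2 changes of 0.42 (adjusted p = 0.144) and -0.30 (adjusted p = 0.0682).

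**Figure D4:**
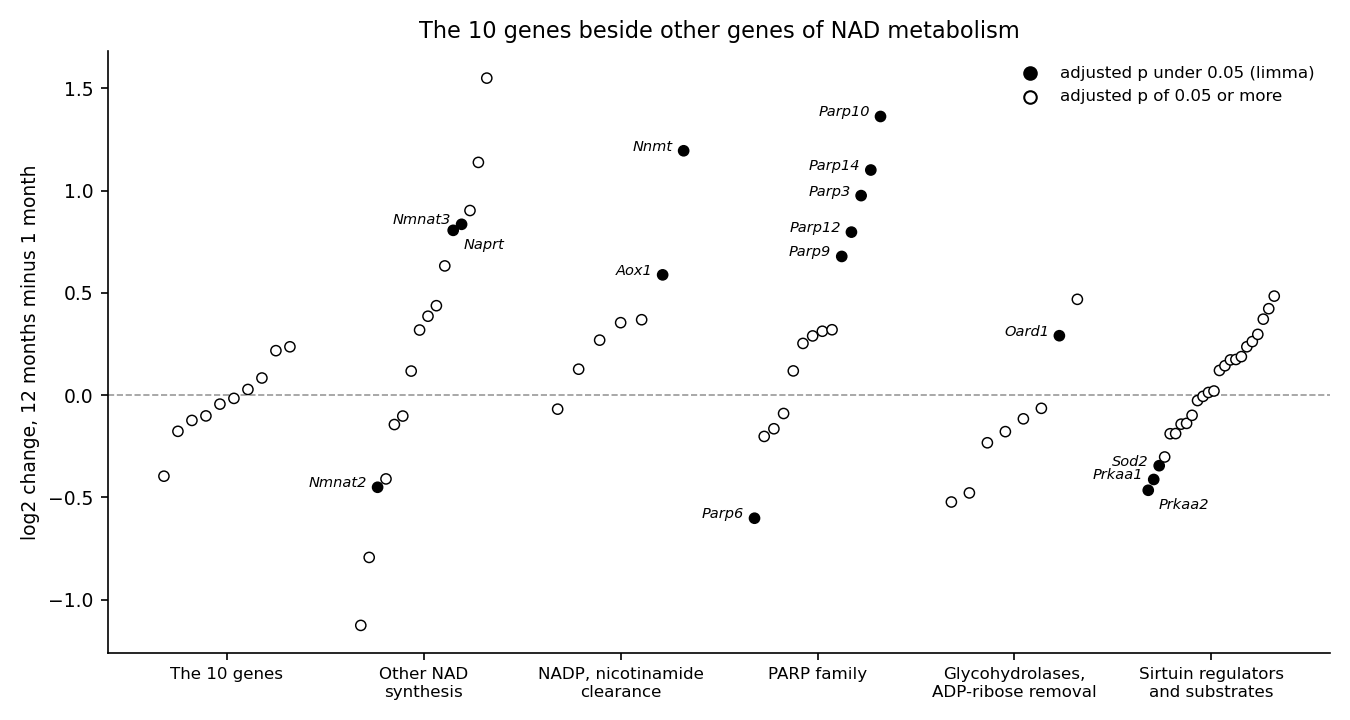
Log2 change (12 months minus 1 month) of the 10 genes and of the tested genes of 5 other groups, sorted within each group. The groups hold genes of NAD metabolism and, in the last, regulators and substrates of sirtuins. Filled, named points had an adjusted p under 0.05 by limma. The 10 genes lay between -0.40 and 0.24 with none filled, and 15 of 69 genes of the other groups were filled. Of all genes tested, 9.45% had an adjusted p under 0.05, so none among only 10 genes does not stand out from that share.

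Markers of cell types in the dissection moved with age. Of 15 macrophage markers 12 rose and none fell (median log2 change 1.75), with a summed level of 143 to 231 FPKM in the young and 769 to 848 FPKM in the old samples and Lyz2 and C1qa as the most abundant. Cd38, which macrophages and lymphocytes can express, had means of 14.2 FPKM in young and 10.8 FPKM in old samples. Of 12 Schwann cell and myelin markers 6 fell and none rose (median log2 change -0.57), with a summed level of 886 to 1272 FPKM in the young and 751 to 764 FPKM in the old samples and Pmp22 among the most abundant, while Sirt2 was higher in each old sample. The part of these markers in the values of Cd38 and Sirt2 was not tested.

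**Figure D5:**
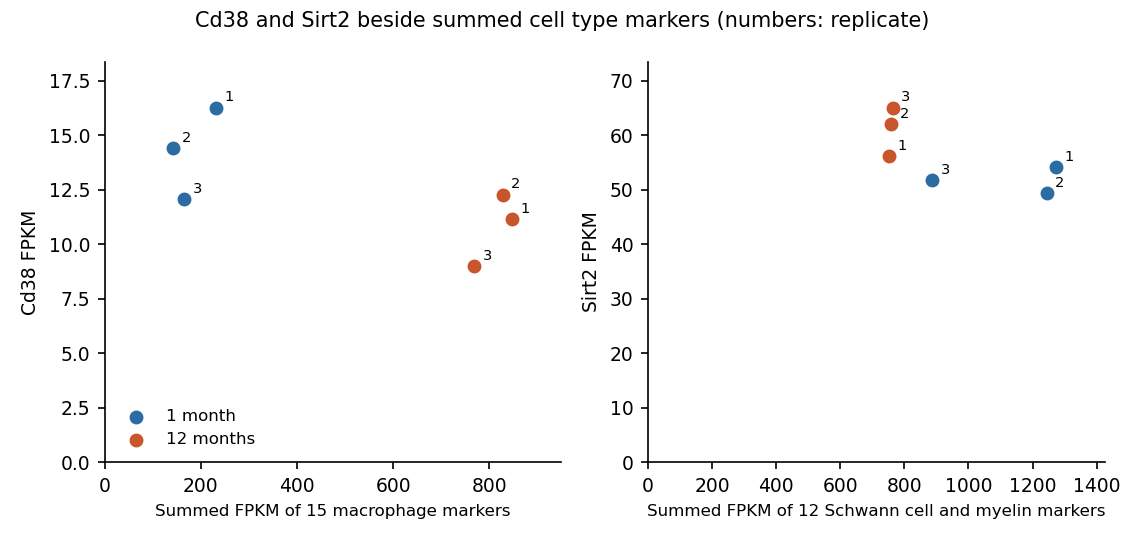
Left, FPKM of Cd38 against the summed FPKM of 15 macrophage markers, and right, FPKM of Sirt2 against the summed FPKM of 12 Schwann cell and myelin markers, for each young (blue) and old (orange) sample, with the replicate number beside each point. Cd38 lay between 9.01 and 12.3 FPKM in the 3 old samples, whose macrophage sums were 769 to 848 FPKM, and Sirt2 between 56.2 and 65.1 FPKM in the old samples, whose myelin sums were 751 to 764 FPKM.

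Other markers were read in the same way. Of the markers tested, 4 of 11 lymphocyte markers and 14 of 19 interferon response genes rose (with Cd2, Cd4, Bst2 and Ifit3 among the most abundant), and 7 of 10 neuron markers and 4 of 10 hair cell markers fell (with Snap25, Nefl, Calb2 and Ocm). The hair cell markers summed to 790 to 1040 FPKM in the young and to 451 to 515 FPKM in the old samples. Hair cell transcripts were thus present in all 6, which does not tell the basilar membrane from other cochlear dissections. Of 10 supporting cell markers, 1 rose and 1 fell, and Gjb6 and Gjb2, the most abundant, were not called. Of 8 bone markers 2 fell, and 8 had an unadjusted p under 0.05 by limma. Every old sample was below every young one for 6 of them and above for 1 (median log2 change -1.09). Their summed level was 82.7 to 313 FPKM in the young and 63.4 to 83.9 FPKM in the old samples. None of 11 proliferation genes, 7 erythrocyte markers, 7 skeletal muscle markers and 4 central oligodendrocyte markers was called by limma (with an unadjusted p under 0.05 for 0, 1, 1 and 0 of them). The muscle markers summed to 22.1 FPKM in old sample 1 against 1.15 to 4.17 FPKM in the others. No marker was listed at 0 in all 6 samples, and Cd3g, Nkg7, Ms4a1 and Jchain of the lymphocyte list and Mog, Hapln2 and Opalin of the oligodendrocyte list were listed at 0 in at least 1 sample.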

How the data were processed

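Per the labels and the study's methods, directional libraries were aligned to GRCm38 with TopHat2 (2.0.9), and the authors computed FPKM per transcript with Cufflinks and Cuffdiff (2.1.1). The deposited FPKM table held 56671 transcripts. Of 55679 Ensembl transcripts 55275 were matched to GENCODE M21 (same build, from which sequences were read). The 404 not matched were left out of gene sums. Each of the 992 transcripts named by the authors was kept as a gene of its own. They count among the 25419 genes and, where they passed the filter, among the genes tested. FPKM were summed per gene, genes with a mean of at least 0.1 FPKM were kept, and log2(FPKM + 0.1) was tested with limma (3.58.1, R 4.3.3, lmFit and eBayes with trend, Benjamini-Hochberg adjustment). The depth was estimated from the steps of low FPKM values, of which 94.0% to 95.6% lay within 0.1 of a whole fragment (20% by chance). All 10 genes were named. From each list of NAD genes, and of sirtuin regulators and substrates, at most 5 called genes in each direction and the 2 most abundant of the others were named. The members, lists and rules were chosen with earlier results of these data known. The method was tested on simulated data with the same spread for every gene and with changes larger than any of the 10 genes showed. Changes as small as theirs were therefore not covered by that test.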

Additional observations from a re-analysis of the deposited data

How the results depend on the processing

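None of the 10 genes was called under any of 16 alternatives, and none of their transcripts under 12. Calls of transcripts were not counted for eBayes without trend, arrayWeights and no filter on low values. Sirt1, Sirt2, Sirt3, Nampt, Cd38 and Parp1 had the same direction throughout, with adjusted p between 0.0671 and 0.245 for Sirt2, 0.0899 and 0.292 for Nampt, and 0.101 and 0.325 for Cd38. The near-zero changes turned sign. Sirt5 was at 0.092 and Sirt6 at 0.04 with arrayWeights, and with the most abundant transcript alone Sirt6 was at 0.11 and Sirt7 at -0.047. With single samples left out, the log2 change ranged from -0.11 to 0.14 for Sirt4, -0.23 to 0.094 for Sirt5, -0.20 to 0.21 for Sirt6, -0.32 to 0.34 for Sirt1-202 and -0.11 to 0.028 for Sirt7-201.

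Calls over all genes (1840) fell to 316 with no filter on low values and to 410 with eBayes without trend. With single samples left out they fell to 5 to 1445 (the fewest without old sample 1). They rose to 2403 with arrayWeights and to 2035 with a mean of at least 1 FPKM. Calls over all lists (66, beside the 10 genes) fell to 10 with no filter and to 1 to 45 with single samples left out. The lists had 71 calls with arrayWeights and 67 with a mean of at least 1 FPKM. Samples of the same number did not deviate together (correlations 0.035, -0.094 and 0.041), so the numbers name the samples only. A replicate block gave 730 calls over all genes, 30 over the lists and 0 of the 10 genes. Of the 69 tested genes of NAD metabolism and of sirtuin regulators and substrates, beside the 10, 15 were called. The number fell to 6 with no filter, 5 with eBayes without trend and 2 with the replicate block. Parp6 and Nnmt had adjusted p = 0.0502 and 0.0583 by limma with quantile normalization. At 3 pools per group and 44.9 to 79.1 fragments per sample, the 95% interval of Sirt6 still reached from 0.649-fold to 1.51-fold. The cause of these differences was not tested.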
